A study of Mus musculus with 4 samples.

Results

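PPARA is a nuclear receptor that is activated by fatty acids and, paired with RXRA, switches on the genes by which hepatocytes burn fat. Fatty acids are carried into mitochondria, shortened by beta-oxidation there and in peroxisomes, or hydroxylated at the far end of the chain by microsomal cytochromes of the Cyp4a family. The fasted liver uses this programme to make ketone bodies and to spare glucose. The 8 genes described here were chosen by name: the receptor gene Ppara, the oxidation genes Cpt1a, Acadm, Ehhadh, Cyp4a10 and Cyp4a14, the hormone gene Fgf21 and the kinase gene Pdk4. They are 8 of the 21755 protein-coding genes in the annotation used, and 7 of the 14233 genes whose mean level over the 4 libraries was at least 10 counts per 1000000 counts in peaks (CPM). Fgf21 was below that minimum, so its values are given but it enters no count of genes.

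Chromatin accessibility was measured by scATAC-Seq in nuclei of liver hepatocytes, prepared by collagenase perfusion from mice on normal diet that the labels give as 10 to 12 weeks old and the study's methods as male C57BL/6J. There was 1 library from undamaged liver (0 h) and 1 library each at 48, 72 and 96 h after surgery in which part of the liver was removed (partial hepatectomy, PHx). By the study's account the 0 h and 48 h libraries each came from a single hepatocyte preparation. How many animals went into the 72 h and 96 h libraries is stated in none of the sources read. With 1 library per time point there was no replicate, so no difference between times was tested, and time and library cannot be told apart. Accessibility is not expression, and no RNA level is given here.

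The libraries became shallower with time, which bears on each value below. Nuclei with at least 1000 counts in peaks numbered 3977, 3892, 4256 and 3224 at 0, 48, 72 and 96 h, with median counts of 26005, 11629, 4841 and 3681.5. Peaks had been called separately in each library, 119839, 158652, 164113 and 77580 of them, so a gene's counts depend on how much of it was called. Across the genes, log2 ratios of counts and of covered length correlated at r = 0.867, 0.900 and 0.837 for 48, 72 and 96 h against 0 h (genes of 1 pair of libraries are not replicates). Each pair of libraries shared 27 to 60 barcodes, at most 1.51% of the smaller set. All 10 hepatocyte markers held peaks in every library, with summed levels of 4291, 5542, 3860 and 5434 CPM in time order, and 3 of them (Apoa1, Asgr1 and Fgb) were at least 2-fold lower at 72 h than at 0 h and 2 (Apoa1 and Asgr1) at 96 h. In the same order the sums were 271, 279, 348 and 208 CPM for 10 endothelial markers, 70.7, 137, 143 and 101 for 6 myeloid and 73.1, 118, 164 and 127 for 8 stellate and mesenchymal markers. They were 13.8 to 33.9 for 5 biliary and 0 to 46.2 for 5 lymphoid markers. Nuclei with more counts at the markers of other cells than at hepatocyte markers made up 1.55% to 5.71% of a library. The part of these cells in the differences between times was not tested, beyond the values in hepatocyte-marker nuclei given below.

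The promoters are shown first, because a peak lay over or within 1 kb of the start of these genes in each library except at Cyp4a10 and Cyp4a14 at 96 h. RefSeq (GRCm38.p6, the mm10 assembly) gave a sequence for 6 of the 8 genes, and Cyp4a10 and Cyp4a14 had no entry. The bases before the RefSeq start were searched on both strands for the element bound by PPARA with RXRA (a repeat of AGGNCA with 1 base between), the single repeat unit AGGTCA, HNF4A (CAAAGTCCA), C/EBP (TTGCNNCAA), AP-1 (TGANTCA) and the TATA box (TATAAA). The single unit can overlap the full element. The sequences run 5′ to 3′ on the gene's strand, leave out bases in GENCODE exons, and carry motif letters in capitals. They are Cpt1a on the plus strand at chr19:3323051-3323284, Acadm on the minus strand at chr3:153944644-153944893, Ehhadh on the minus strand at chr16:21787835-21788084 and Pdk4 on the minus strand at chr6:5496310-5496528.
Cpt1a: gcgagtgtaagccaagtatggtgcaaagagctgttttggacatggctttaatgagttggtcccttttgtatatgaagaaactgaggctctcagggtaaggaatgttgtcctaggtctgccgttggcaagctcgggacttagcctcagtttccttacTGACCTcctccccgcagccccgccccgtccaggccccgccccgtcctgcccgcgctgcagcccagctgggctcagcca
Acadm: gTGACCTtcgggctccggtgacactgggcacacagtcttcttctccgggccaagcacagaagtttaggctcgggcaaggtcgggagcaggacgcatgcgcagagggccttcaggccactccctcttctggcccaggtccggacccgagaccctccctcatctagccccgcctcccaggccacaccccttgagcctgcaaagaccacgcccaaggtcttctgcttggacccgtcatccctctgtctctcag
Ehhadh: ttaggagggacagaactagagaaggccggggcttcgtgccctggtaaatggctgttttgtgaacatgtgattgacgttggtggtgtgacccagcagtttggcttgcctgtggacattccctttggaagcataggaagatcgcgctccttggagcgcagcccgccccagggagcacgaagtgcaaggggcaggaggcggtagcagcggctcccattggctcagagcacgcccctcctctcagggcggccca
Pdk4: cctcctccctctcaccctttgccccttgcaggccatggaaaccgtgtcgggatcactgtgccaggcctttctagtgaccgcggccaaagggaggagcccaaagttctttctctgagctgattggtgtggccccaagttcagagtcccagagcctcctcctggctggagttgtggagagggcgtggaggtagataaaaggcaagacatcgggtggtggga

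The full PPARA element was not found in the 250 bases before the start of any of the 6 genes, and 0.341% of 32585 promoters of that length held it. The single unit AGGTCA was found on the reverse strand at Cpt1a and Acadm, as in 14.1% of promoters. A TATA box lay 28 bases before the start of Fgf21, as in 12.4% of promoters. The Ppara promoter had the highest GC content of the 6, 76.4% with 27 CG dinucleotides, against a median of 52.4% and 6 over all promoters. It lies before a RefSeq start that is 793 bases downstream of the GENCODE start from which distances are counted here, and 150 of its 250 bases are in GENCODE exons. At Cpt1a the RefSeq start is 967 bases downstream of the GENCODE start, so the sequence printed for Cpt1a lies inside the gene as counted here. No match says only that these letters were absent from this window.

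Within the gene windows of the same 6 genes the full element was found only at Ppara and Cpt1a, at 3 and 11 positions, all in introns. It was not found in the windows of Acadm, Ehhadh, Fgf21 and Pdk4, and those of Cyp4a10 and Cyp4a14 were not searched. The rate over the 6 windows was 67.8 matches per Mb against 15.2 over the autosomes and 29.1 to 31.0 within called peaks, and 5 of the 11 at Cpt1a overlapped in 1 tandem repeat. A match is a run of letters and not a shown binding site. The examples give 15 bases on either side with the element in capitals, read on the strand that holds it. The first pair was inside a called peak in all 4 libraries, and the others were inside a peak at 0 h but not at 96 h. Called peaks covered 100% and 95.2% of the Ppara and Cpt1a windows at 0 h, and 25.6% and 20.8% at 96 h. Most positions in these windows would therefore be inside a peak at 0 h and outside at 96 h, whatever their letters. The first pair lies at chr15:85774393-85774405 (plus strand) and chr19:3335957-3335969 (plus), and the other 4 lie at chr15:85765838-85765850 (minus), chr19:3342007-3342019 (plus), chr19:3348621-3348633 (plus) and chr19:3351929-3351941 (minus).
Ppara intron, 39410 bases from the start: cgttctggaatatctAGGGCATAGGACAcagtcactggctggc
Cpt1a intron, 13623 bases from the start: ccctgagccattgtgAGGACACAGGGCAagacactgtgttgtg
Ppara intron, 30855 bases from the start: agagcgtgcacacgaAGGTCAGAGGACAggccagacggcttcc
Cpt1a intron, 19673 bases from the start: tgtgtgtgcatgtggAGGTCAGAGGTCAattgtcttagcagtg
Cpt1a intron, 26287 bases from the start: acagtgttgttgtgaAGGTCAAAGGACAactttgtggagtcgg
Cpt1a intron, 29595 bases from the start: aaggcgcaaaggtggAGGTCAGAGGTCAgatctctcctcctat

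Counts over each gene body plus 2 kb upstream, scaled to CPM, differed between the genes in their course after PHx. Ppara and Cpt1a were highest in undamaged liver and lower at each later time, and Cyp4a10 did the same by a much larger factor. Cyp4a14 was higher at 48 h than at 0 h and lower than at 0 h afterwards. Acadm and Pdk4 stayed within 1.32-fold of their 0 h level. Ehhadh and Fgf21 were close to it at 48 h and lower at 72 h and 96 h. At 48 h, 1 of the 7 genes counted was at least 2-fold higher (Cyp4a14, background 4.53% of genes) and 1 at least 2-fold lower (Cyp4a10, background 2.04%). Cyp4a10 met the minimum mean of 10 CPM through its 0 h level (51.3 CPM, then 10.7, 9.14 and 2.88). Its calls as lower than 0 h are therefore not independent of that filter. At 72 h and at 96 h the same 4 genes, Ppara, Cpt1a, Cyp4a10 and Cyp4a14, were at least 2-fold lower, where 6.43% and 8.4% of all genes were. None was at least 2-fold higher at 72 h or 96 h, where 8.53% and 4.9% of all genes were. The median log2 ratio of the 7 was -0.40, -1.16 and -1.35 at 48, 72 and 96 h, beside -0.06, -0.05 and 0.08 over all genes.

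The same count was taken on 2 other scales, since covered length differed so much between libraries. For peaks within 1 kb of the start, 5 of the genes had a mean of at least 10 CPM (Fgf21, Cyp4a10 and Cyp4a14 did not) and none was at least 2-fold higher at any time (3.31%, 4.88% and 5.77% of all genes were at 48, 72 and 96 h). Ppara was at least 2-fold lower at 48 h (background 2.71%), and Ppara and Pdk4 were at 72 h (8.73%) and 96 h (8.9%), where at both genes a peak that had covered the whole gene was divided. Per kb of covered peak none of the 7 was at least 2-fold higher at 48 h or 72 h (background 0.112% and 1.28%) or lower at any time (1.17%, 0.352% and 0.00706%). At 96 h 5 of the 7 were at least 2-fold higher per kb, as were 71.5% of all genes.

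**Figure D1:**
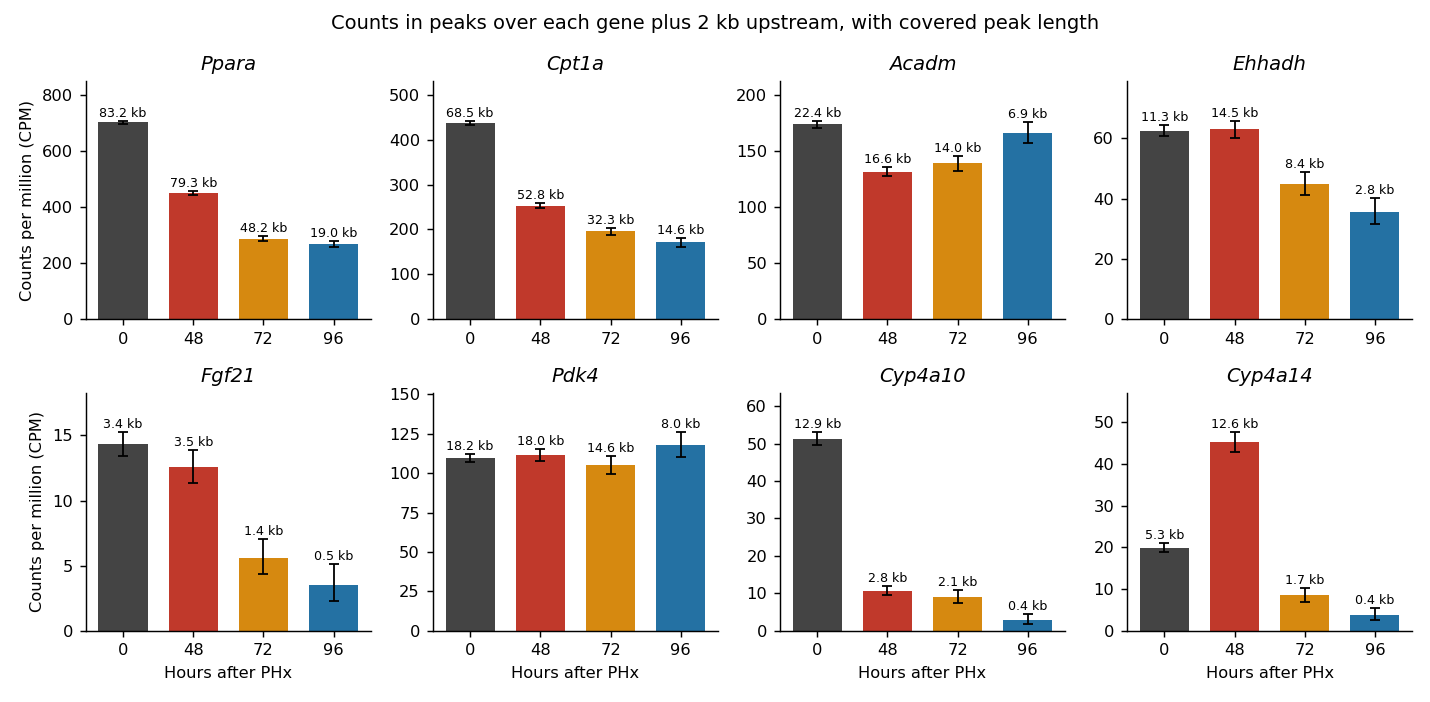
CPM in called peaks over each of the 8 genes plus 2 kb upstream (vertical axis, from 0) by hours since PHx (horizontal axis), 1 library each. Lines are exact 95% Poisson intervals of counting error only, and the labels give the covered peak length in kb; Ppara went from 703 to 269 CPM while its covered length went from 83.2 to 19.0 kb.

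Ppara, the gene of the receptor itself, lies on chromosome 15 (chr15:85734983-85802819, plus strand). Its level was 703 CPM (95% interval 697 to 709) in undamaged liver, 452 at 48 h (interval 444 to 459), 288 at 72 h (interval 278 to 297) and 269 at 96 h (interval 257 to 281). The intervals, which cover counting error only, did not overlap between 0 h, 48 h and the later times, and those of 72 h and 96 h overlapped. The level was 1.56-fold lower at 48 h, 2.44-fold lower at 72 h and 2.61-fold lower at 96 h than at 0 h.

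In undamaged liver the whole Ppara gene lay inside a single peak of 83229 bp, the fifth longest of 119839 peaks in that library. It ran from position -4112, counted from the gene start, to beyond the gene's end and also covered the neighbouring gene Cdpf1. Whole peaks were counted, so the levels at 0, 48 and 72 h include counts of a peak shared with Cdpf1. At 96 h no counted peak was shared with it, so the folds against 0 h compare unlike stretches. At 48 h the domain was divided into 5 peaks that still covered 96.3% of the window, at 72 h into 24 peaks covering 57.5%, and at 96 h into 17 peaks covering 25.6%. The peak over the gene start shortened from 83229 to 30732, 5717 and 4759 bp, so that a ratio for the promoter alone compares unlike intervals.

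Per kb of covered peak, Ppara held 8.44 CPM at 0 h, 5.70 at 48 h, 5.97 at 72 h and 14.1 at 96 h. The log2 ratio per kb was therefore -0.57, -0.50 and 0.74, beside -0.23, 0.16 and 1.3 over all genes. On this scale Ppara was also below the median gene at each of the 3 times. The start-site peak had nearly the same extent at 72 h and 96 h and held 70.3 and 100.3 CPM, a log2 ratio of 0.51 where the median pair of peaks that overlapped by at least 80% of both gave 0.53.

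**Figure D2:**
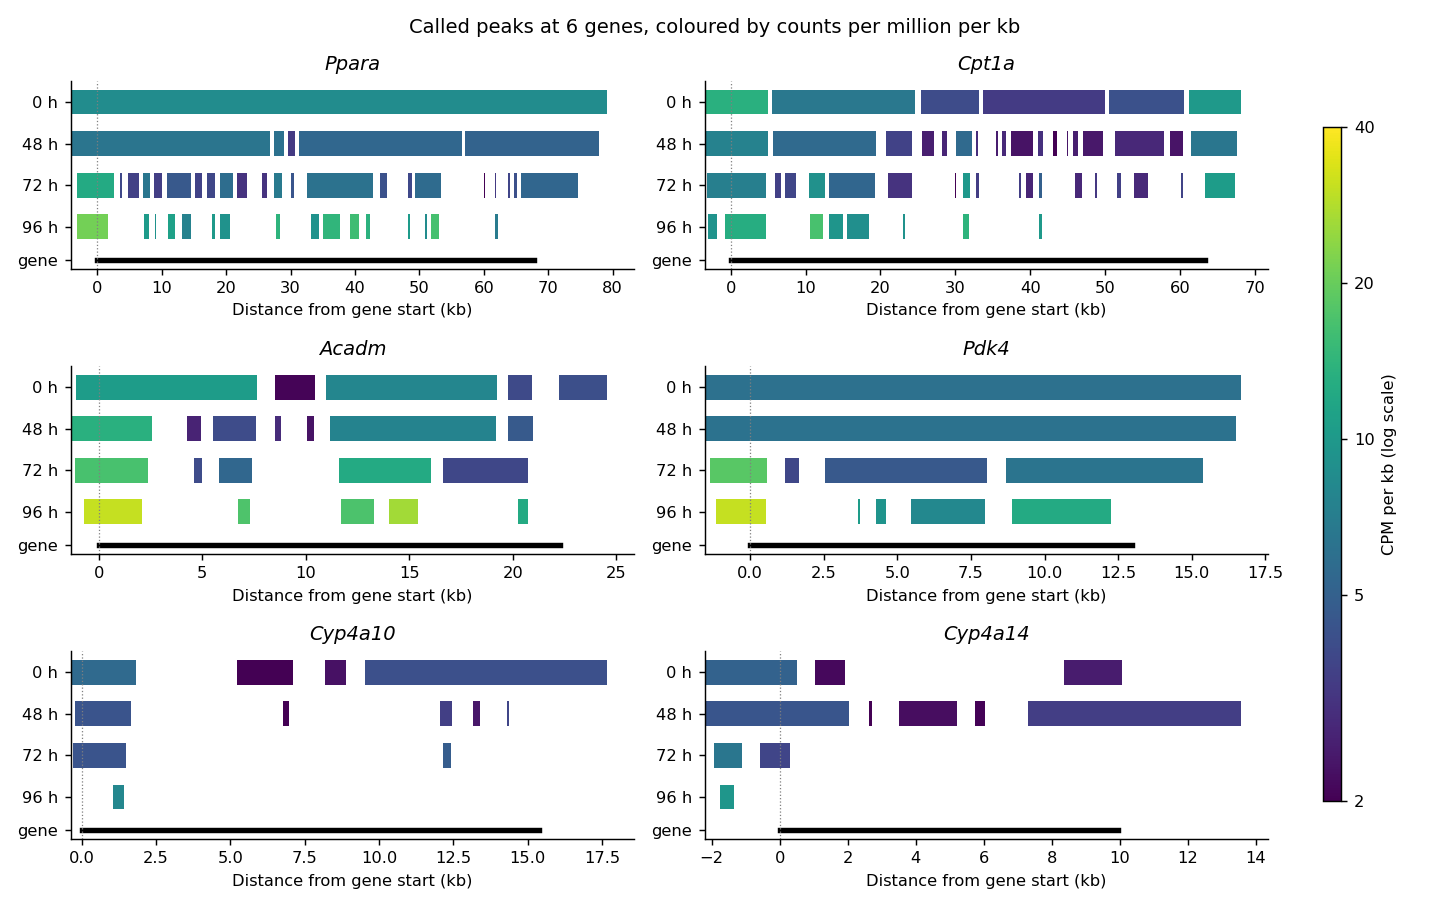
Called peaks at 6 genes in each library (rows) against distance from the gene start in kb, with the gene body as a black line and colour giving CPM per kb on a log scale. The single Ppara domain of 0 h is 24 separate peaks at 72 h, while Pdk4 keeps 1 peak of about 18 kb at 0 h and 48 h.

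Cpt1a encodes the liver enzyme that couples long-chain fatty acids to carnitine for entry into mitochondria, the step at which the rate of oxidation is set. The gene lies at chr19:3322334-3385733 on the plus strand. Its level was 437 CPM (432 to 442) in undamaged liver, then 253 at 48 h (interval 247 to 258), 196 at 72 h (interval 188 to 204) and 171 at 96 h (interval 162 to 181). No 2 intervals overlapped, and the level was 1.73-, 2.23- and 2.56-fold lower than at 0 h. Covered length went from 68.5 to 52.8, 32.3 and 14.6 kb, and per kb the log2 ratios were -0.42, -0.07 and 0.88, again below the median gene each time. The peak at its start is shared with a further annotated gene and the peak at its far end with Tesmin. At 72 h the far-end peak, from 63373 to 67352 bases after the start of a gene of 63400 bp, held 41.0 of the 196 CPM. At 96 h the last peak counted ended 41541 bases after the start. The step from 72 h to 96 h therefore compares unlike stretches.

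At Cpt1a the comparison could also be made over the same stretch of DNA. The peak over its start had nearly equal ends in the first 3 libraries, 8431 bp at 0 h, 8355 bp at 48 h and 7997 bp at 72 h. It held 112 CPM (110 to 115) in undamaged liver, 63.4 (60.6 to 66.3) at 48 h and 57.3 (53.2 to 61.7) at 72 h. The promoter printed for Cpt1a lies within that peak.

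The start-site peak of Cpt1a was 1.77-fold lower at 48 h and 1.96-fold lower at 72 h. Among 52332 pairs of peaks that overlapped by at least 80% of both at 0 h and 48 h, 0.791% had a lower ratio, and among 42105 pairs at 0 h and 72 h, 0.247% did. Over those pairs the median log2 ratio was -0.01 and 0.29, and 0.170% and 0.209% were at least 2-fold lower. A second Cpt1a peak, 61197 bases after the start at the far end of the gene, went from 69.6 to 39.7 CPM at 48 h, a log2 ratio of -0.81. At 96 h the start-site peak was 5443 bp with 70.4 CPM, which is 1.60-fold below 0 h over a shorter interval.

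**Figure D3:**
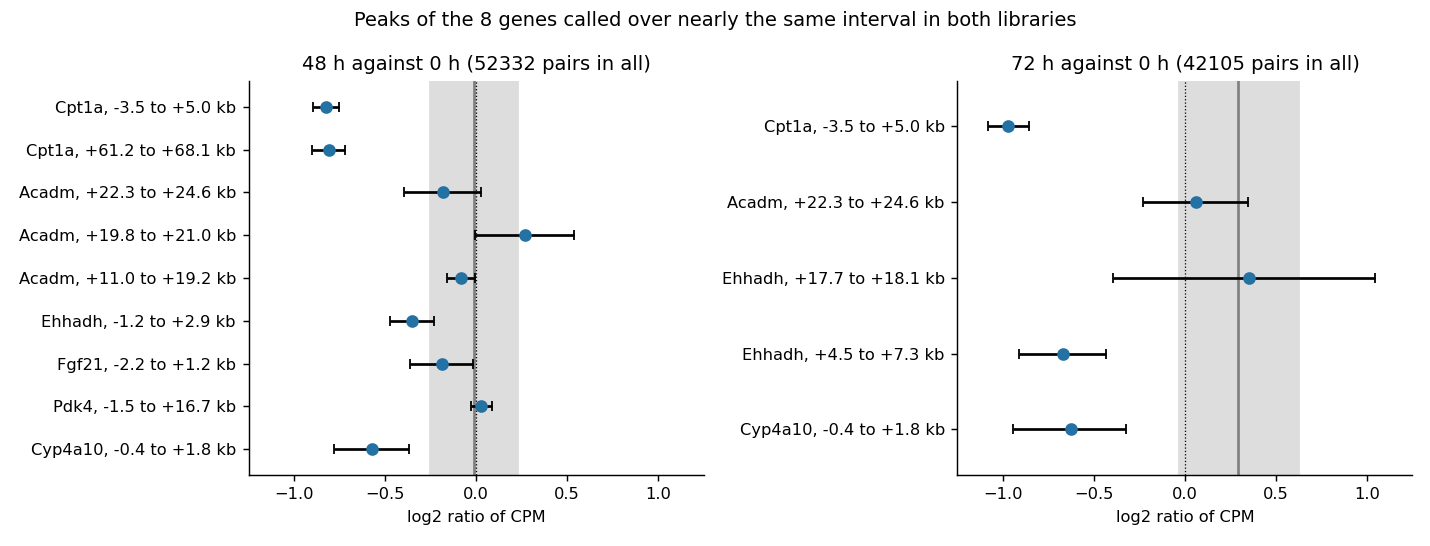
log2 ratio of CPM for the peaks of the 8 genes that were called over nearly the same interval in both libraries, 48 h and 72 h against 0 h, with 95% intervals of counting error. The grey line and band are the median and interquartile range of all such pairs; the Cpt1a start-site peak stands at -0.83 and -0.97.

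Acadm encodes the medium-chain acyl-CoA dehydrogenase of mitochondrial beta-oxidation (chr3:153922357-153944632, minus strand). Its level was 174 CPM at 0 h, 131 at 48 h, 139 at 72 h and 166 at 96 h. It was lowest at 48 h, 1.32-fold below 0 h, and the 96 h ratio of -0.06 on the log2 scale had an interval that included 0 (-0.15 to 0.02). The intron peak of about 8 kb that matched between 0 h and 48 h held 65.0 and 61.4 CPM. The peak at the start held 90.7, 52.5, 59.0 and 86.2 CPM over 8722, 3934, 3525 and 2815 bp, so that at 96 h a much shorter peak held close to the 0 h CPM.

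Ehhadh encodes the bifunctional enzyme of peroxisomal beta-oxidation (chr16:21761287-21787807, minus strand). Its level was 62.5 CPM at 0 h, 63.0 at 48 h, 44.8 at 72 h and 35.6 at 96 h. The levels at 0 h and 48 h did not differ beyond counting error, and those at 72 h and 96 h were 1.40- and 1.75-fold lower. The start-site peak, 4190 bp at 0 h and 4145 bp at 48 h, held 32.0 and 25.1 CPM, a log2 ratio of -0.35 (-0.47 to -0.23). An intron peak that matched between 0 h and 72 h held 20.9 and 13.1 CPM, and 1.79% of pairs had a lower ratio. A second, of 443 bp at 0 h, held 1.36 and 1.74 CPM, with a log2 ratio of 0.35 whose interval included 0 (-0.40 to 1.04).

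Cyp4a10 and Cyp4a14 encode omega-hydroxylases of fatty acids and lie in a cluster of similar genes on chromosome 4 (chr4:115518264-115533649, plus strand, and chr4:115486200-115496142, minus strand). Reads could be shared between such copies, so their counts are uncertain in a way that was not tested. Cyp4a10 was at 51.3 CPM at 0 h, 10.7 at 48 h, 9.14 at 72 h and 2.88 at 96 h. The undamaged liver stood apart from all later libraries, by 4.79-, 5.61- and 17.8-fold.

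Most of the Cyp4a10 difference lay in peaks that were no longer called. A peak of 8150 bp from 9518 bases after the start held 33.9 CPM at 0 h, and at 48 h only 3 pieces of it remained called. The start-site peak was kept with 12.1, 8.16 and 7.85 CPM over 2180, 1871 and 1794 bp at 0, 48 and 72 h, which is 1.49- and 1.55-fold lower. At 96 h the only peak in the window covered 360 bp with 43 counts, and no peak was called within 1 kb of the start. Since only called peaks hold counts, this is not a measure of zero accessibility.

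Cyp4a14 was at 19.9 CPM (18.9 to 21.0) in undamaged liver, 45.1 at 48 h (interval 42.8 to 47.5), 8.53 at 72 h (interval 6.98 to 10.3) and 3.88 at 96 h (interval 2.60 to 5.58). It was 2.27-fold higher at 48 h, 2.33-fold lower at 72 h and 5.12-fold lower at 96 h, and no 2 intervals overlapped. Covered length moved with it, at 5292, 12618, 1686 and 402 bp, and per kb the values at 0 h and 48 h were 3.76 and 3.57 CPM. The gain at 48 h therefore lay in longer and additional peaks, chiefly a peak of 6259 bp over the far end of the gene with 21.7 CPM. The start-site peak went from 13.8 CPM over 2714 bp to 18.8 over 4255 bp, or 1.37-fold. Cyp4a10 and Cyp4a14 thus stood on opposite sides of their 0 h levels at 48 h.

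Fgf21 encodes a hormone that the fasting liver secretes and that PPARA induces (chr7:45613886-45615490, minus strand). Its level was 14.3 CPM (13.4 to 15.2) in undamaged liver and 12.6 (11.3 to 13.9) at 48 h, then 5.58 (4.34 to 7.06) at 72 h and 3.48 (2.27 to 5.10) at 96 h. The first 2 levels were close, and the later ones were 2.56- and 4.11-fold lower, from 138 and 52 counts. The single peak over the gene, which the neighbouring Fut1 shared, measured 3447 bp at 0 h and 3482 at 48 h with a log2 ratio of -0.19. At 96 h only 485 bp remained called. The peak over the gene itself held 3.52 CPM at 72 h and 0.268 CPM (4 counts) at 96 h, and the other counts lay upstream, so the later folds depend on the upstream sequence.

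Pdk4 encodes a kinase that shuts off pyruvate dehydrogenase and so turns the cell from glucose to fat as fuel (chr6:5483351-5496309, minus strand). By CPM over the gene window, though not by the promoter alone or per kb, it was the steadiest of the 8. It was at 109 CPM (107 to 112) in undamaged liver, 112 at 48 h (interval 108 to 115), 105 at 72 h (interval 99.7 to 111) and 118 at 96 h (interval 110 to 126). A peak of 18176 bp at 0 h and 18040 bp at 48 h covered the whole gene and its start, with a log2 ratio of 0.03 (-0.03 to 0.09). At 72 h and 96 h it was divided into 4 and 6 peaks that covered 14636 and 7999 bp with nearly the same CPM (from 2604 and 1760 counts, against 14944 at 0 h), so that per kb Pdk4 held 7.20 and 14.7 CPM against 6.02 at 0 h.

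Shares of nuclei with a count were compared at equal depth, though the peaks called still differed between libraries. Thinned shares are those expected if each nucleus with at least 2000 counts were thinned at random to 2000 (leaving out 258 to 740 nuclei per library). A count at Ppara was expected in 67.9%, 49.7%, 34.95% and 34.5% of nuclei at 0, 48, 72 and 96 h. Without thinning the shares were 89.1%, 75.7%, 48.2% and 42.4%. In the 128, 77, 113 and 17 nuclei with more counts at the markers of other cells, the thinned share at Ppara was 18.8%, 23.7%, 22.4% and 22.8%. Median depth was 3848 to 28163 counts in hepatocyte-marker nuclei and 1544.5 to 4211 in the others.

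The thinned share for Cpt1a was 53.0%, 34.8%, 25.9% and 22.0%, and in the nuclei of other markers 33.2%, 35.5%, 26.9% and 30.7%. From 48 h on, the share at Cpt1a was no higher in hepatocyte-marker nuclei (34.7%, 25.6% and 22.0%) than in the others. The thinned share for Cyp4a14 was 3.27%, 6.45%, 1.34% and 0.752%, beside 0.638%, 3.62%, 0.764% and 0 in the nuclei of other markers. Pdk4 was at 15.5%, 14.7%, 13.7% and 15.7%. Unthinned shares were 86.0%, 67.0%, 37.5% and 29.6% for Cpt1a, 24.5%, 22.2%, 2.61% and 1.12% for Cyp4a14 and 53.5%, 37.6%, 21.0% and 20.7% for Pdk4.

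Among hepatocyte-marker nuclei Ppara was at 707, 454, 291 and 271 CPM, and among nuclei of other markers at 132, 204, 192 and 193 CPM. It was higher in hepatocyte-marker nuclei in 4 of 4 libraries, as were 11.5% of all genes, with log2 differences of 2.42, 1.2, 0.60 and 0.49 (exact sign-flip permutation p = 0.125, two-sided, n = 4, the smallest p that 4 libraries allow). The other-marker values rest on 118, 104, 111 and 18 counts. Acadm was also higher in 4 of 4, with a mean log2 difference of 0.57 ± 0.35 (SD). Cpt1a was higher in 1 of 4, with a mean of -0.34 ± 0.65, near the all-gene median of -0.23, and Pdk4 and Ehhadh were higher in 3 of 4. At 96 h the other-marker values rest on only 8 counts for Acadm, 34 for Cpt1a, 5 for Ehhadh and 8 for Pdk4. Cyp4a10, Cyp4a14 and Fgf21 had 0 to 16 counts in the other-marker nuclei of a library. All 3 had 0 at 96 h, so that no mean over the 4 could be taken.

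Hepatocytes differ along the lobule between the central vein and the portal tract, so the genes were also compared within each library, where the called peaks are the same for all nuclei. Hepatocyte-marker nuclei with at least 10 counts at 20 zonal marker genes were ranked by the pericentral share of those counts within 10 bins of depth, and the upper of 3 equal groups was set against the lowest, with 732 to 1170 nuclei in each. These zones are inferred from marker genes and not from tissue position. The ranking was checked by building it from every other marker and measuring those left out: the median log2 difference of the 10 pericentral markers was 1.30, 0.81, 0.36 and 0.27 at 0, 48, 72 and 96 h, and of the 10 periportal markers -0.84, -0.87, -0.56 and -0.52. By these medians the split was wider at 0 h and 48 h than in the shallower libraries, where a nucleus had a median of 25 and 23 zonal marker counts against 147 and 65.

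Pdk4 showed the widest zonal difference of the 8 genes at 0 h. In undamaged liver it was at 198 CPM in pericentral-ranked nuclei (192 to 204) and 52.5 in periportal-ranked nuclei (49.5 to 55.6), a 3.78-fold difference. At 48 h the values were 181 and 73.4 CPM, at 72 h 138 and 92.6, and at 96 h 156 and 95.9. The intervals of the zones did not overlap at any time, and the folds were 2.47, 1.49 and 1.63 after PHx. So while the total for Pdk4 stayed nearly level, the pericentral-ranked level was lower and the periportal-ranked level higher than at 0 h. Among the left-out markers the medians were nearer to 0 at 72 h and 96 h than at 0 h, but the periportal median was not at 48 h (-0.87 against -0.84), and single markers varied. At 48, 72 and 96 h 9, 10 and 9 of 10 pericentral markers and 6, 7 and 7 of 10 periportal markers were nearer to 0 than at 0 h. How far the narrowing at Pdk4 follows from the depth of the ranking was not tested beyond 1 check: with the marker counts of each nucleus thinned to 10, the log2 differences of Pdk4 were 1.70, 1.24, 0.52 and 0.61.

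**Figure D4:**
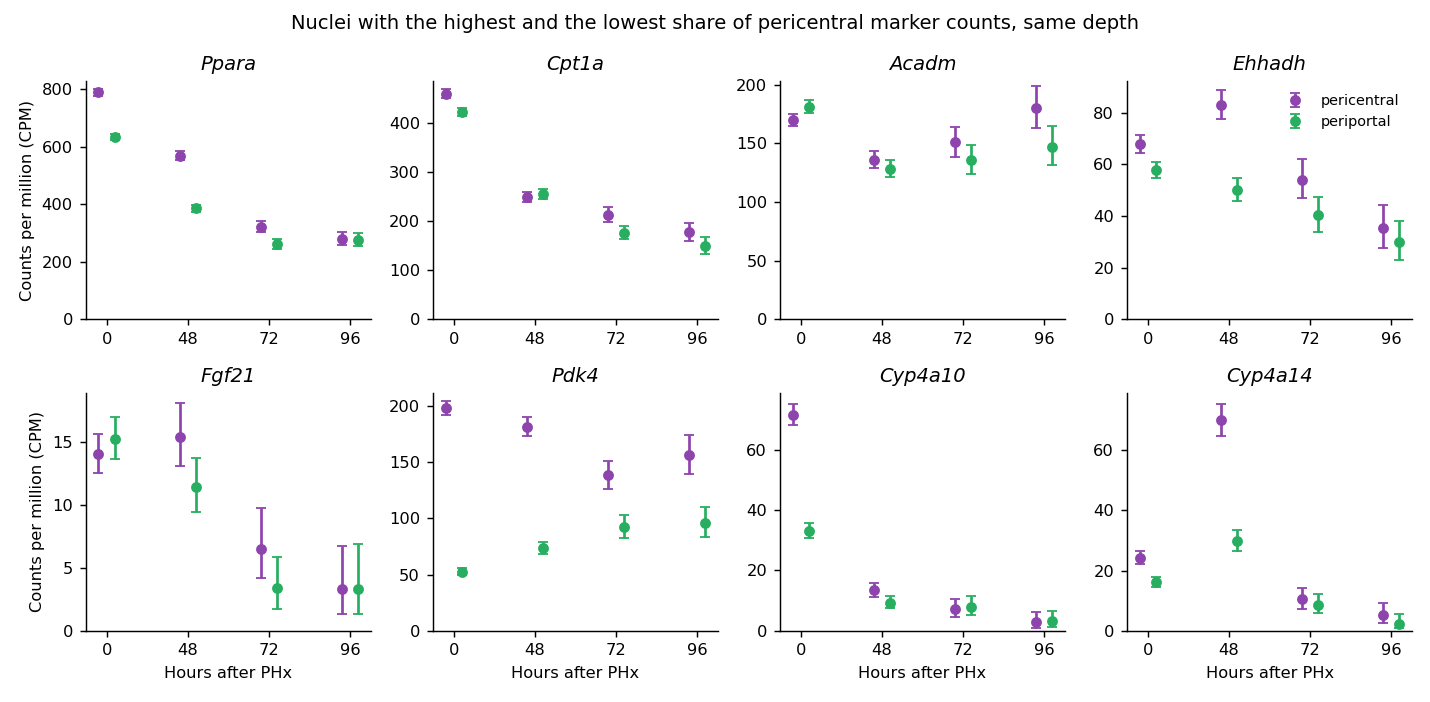
CPM (vertical axis, from 0) of each of the 8 genes in the groups of hepatocyte-marker nuclei with the highest (pericentral) and lowest (periportal) share of pericentral marker counts, at equal depth, by hours after PHx. Lines are 95% intervals of counting error; for Pdk4 the zones stand at 198 and 52.5 CPM at 0 h and at 156 and 95.9 CPM at 96 h.

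Of the 7 genes counted, Ppara, Ehhadh, Pdk4 and Cyp4a14 were higher in pericentral-ranked nuclei in 4 of 4 libraries, where 18.2% of all genes were, and none was lower in all 4 (9.99% of all genes). The exact sign-flip permutation p was 0.125 for each (two-sided, n = 4), the smallest the design allows. The mean log2 difference was 1.13 ± 0.62 (SD) for Pdk4 and 0.30 ± 0.22 for Ppara, beside a median of 0.03 over all genes. At 96 h the differences of 0.02 for Ppara and 0.24 for Ehhadh (interval -0.27 to 0.75) were within counting error. Ehhadh differed most at 48 h, at 83.1 against 50.0 CPM.

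Both omega-hydroxylase genes leaned to the pericentral side when they were most accessible. At 0 h Cyp4a10 was at 71.7 CPM in pericentral-ranked and 33.2 in periportal-ranked nuclei, a 2.16-fold difference. At 48 h Cyp4a14 was at 70.0 against 29.9 CPM, or 2.34-fold. Compared with 0 h, the 48 h level of Cyp4a14 was higher in both zones, from 24.3 to 70.0 and from 16.2 to 29.9 CPM. At 72 h and 96 h the zones of both genes overlapped within counting error, on 10 to 75 counts each. Cpt1a and Acadm differed by at most 0.29 on the log2 scale in any library, and their signs varied. Acadm was at -0.095 at 0 h (interval -0.16 to -0.030), and Cpt1a at -0.036 at 48 h, where the interval included 0.

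The wider pathway was described from 8 gene lists, each compared with all genes. The lists hold the members themselves, with Cpt1a and Acadm in the mitochondrial list, Ehhadh in the peroxisomal list, Cyp4a10 and Cyp4a14 among omega-oxidation genes Ppara among its cofactors and Fgf21 and Pdk4 among the other targets, so they are not separate from the results above. Of all genes 2.04%, 6.43% and 8.4% were at least 2-fold lower at 48, 72 and 96 h, 4.53%, 8.53% and 4.9% were higher, and the median log2 ratio was -0.06, -0.05 and 0.08. In mitochondrial beta-oxidation 0, 4 and 6 of 21 genes were at least 2-fold lower at 48, 72 and 96 h and none was higher, with a median log2 ratio of -0.33, -0.79 and -0.57. The genes with the largest folds were Eci2, an enoyl-CoA isomerase (185 CPM at 0 h, 49.7 at 72 h), and Hadha and Hadhb, which encode the trifunctional protein. Hadha went from 83.0 CPM at 0 h to 25.6 at 96 h and Hadhb from 61.1 to 19.9 at 72 h. Their promoter log2 ratios were identical at 48, 72 and 96 h (-0.27, -1.50 and -1.01), so these genes share start-site counts and are not separate observations. In peroxisomal beta-oxidation 2, 4 and 4 of 14 genes were lower and none higher (medians -0.23, -0.58 and -0.61). Ech1, an enoyl-CoA hydratase family member, was at 116 CPM at 0 h and 24.8 at 96 h. The peroxisomal transporter gene Abcd3 was at 293 CPM at 0 h and 105 at 96 h, and the reductase gene Decr2 at 113 CPM at 0 h and 38.1 at 72 h.

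Of the 7 omega-oxidation genes counted, 2, 5 and 4 were lower and 1, 0 and 0 higher (medians -0.42, -1.22 and -1.37), the 1 gene higher at 48 h being Cyp4a14 itself. Cyp4a32, in the same cluster as the 2 omega-hydroxylase genes above, was at 216 CPM at 0 h and 52.5, 19.9 and 29.6 afterwards. In ketogenesis, which turns the product of beta-oxidation into ketone bodies, 0, 3 and 3 of 6 genes were lower (medians -0.50, -1.07 and -1.11). Acat1 went from 93.7 to 26.8 CPM and Bdh1 from 148 to 49.1 between 0 h and 96 h. Of 13 genes for PPARA and its cofactors 0, 2 and 2 were lower (medians -0.30, -0.69 and -0.45), with Lpin1 at 242 CPM at 0 h and 81.7 at 96 h, and Med1 at 23.6 CPM at 0 h and 10.2 at 72 h. Rxra, the partner of PPARA, went the other way, at 751 CPM at 0 h and 1145, 1401 and 1394 afterwards, or 1.52-, 1.87- and 1.86-fold higher (chosen after its values were seen).

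Of 21 other PPARA targets 2, 5 and 7 were at least 2-fold lower (medians -0.19, -0.49 and -0.69). Cpt1b, the muscle form of the carnitine enzyme, had the largest fold, from 116 to 3.82 CPM at 96 h while its covered length went from 16592 to 401 bp. Txnip was at 148 CPM at 0 h and 22.6 at 96 h, and Fabp1, the liver fatty acid binding protein, at 311 CPM at 0 h and 101 at 72 h. Among 12 genes of the FGF21 receptor and of pyruvate dehydrogenase 0, 0 and 1 were lower (medians -0.41, -0.16 and -0.05), the one being Pdhb (169 to 72.0 CPM at 96 h). That 1 of 12 is near the 8.4% of all genes.

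The opposing pathway was taken for comparison. Of 15 genes of malonyl-CoA turnover and fatty acid synthesis 1, 1 and 3 were lower, with medians of -0.43, -0.07 and -0.51. The 1 of 15 at 72 h is near the share of all genes. Fasn, the fatty acid synthase gene, was lowest at 48 h, at 265 CPM against 655 at 0 h, and was at 506 and 432 CPM at 72 h and 96 h. Mlycd, which breaks down malonyl-CoA, the inhibitor of the Cpt1a enzyme, went from 823 CPM at 0 h to 156 at 96 h, with 60037 and 11300 bp covered. It is 1 of the 3 genes lower at 96 h, and by that role it is not a gene of synthesis. None of the 8 lists had a member at least 2-fold higher at 72 h or 96 h. Per kb of covered peak the medians of the oxidation lists were between -0.26 and 0.24 at 48 h and 72 h, as the median over all genes was (-0.23 and 0.16). At 96 h the per-kb medians of the mitochondrial, peroxisomal, omega-oxidation and ketogenesis lists were between 1.003 and 1.37, beside 1.3 over all genes, opposite in sign to the medians of counts.

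**Figure D5:**
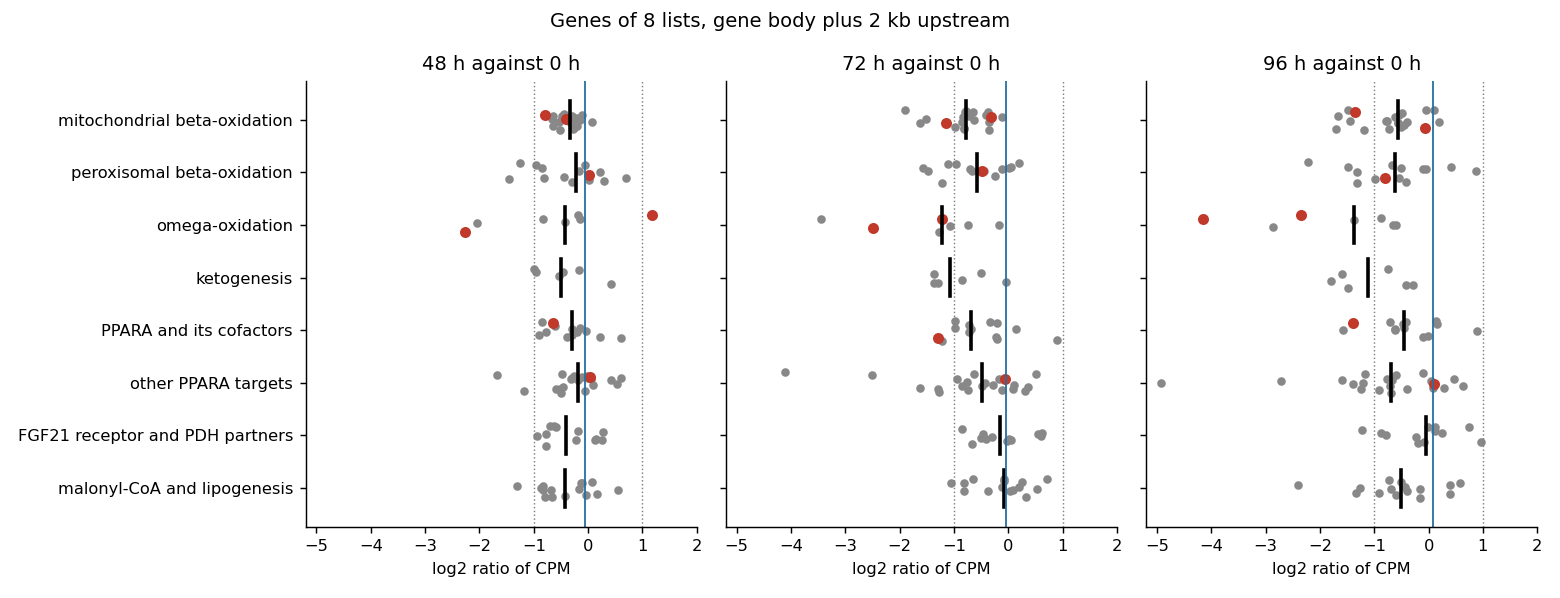
log2 ratio of CPM to 0 h for the counted genes of 8 lists at 48, 72 and 96 h, with the genes described above in red where a list holds them, list medians as black bars, the median of all genes as a blue line and dotted lines at 2-fold. At 48, 72 and 96 h the medians stand at -0.33, -0.79 and -0.57 for mitochondrial beta-oxidation and at -0.43, -0.07 and -0.51 for malonyl-CoA and lipogenesis.

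The genes whose 3 log2 ratios were closest to those of 7 of the members were found by root mean square difference over the 3 ratios, which share the 0 h library. For Ppara they were Entpd8, Cox14 and Apoc1 (0.049 to 0.053), and for Cpt1a Gcat, Tmed10 and Slc25a33 (0.065 to 0.076). Acadm was matched most closely by Rbfa, Ggt7 and Tmem260 (0.0080 to 0.021), Ehhadh by 5430427O19Rik, Haghl and Amt (0.034 to 0.053) and Pdk4 by Arhgap18, Cebpzos and Ppp6c (0.010 to 0.012). Patterns as large as that of Cyp4a10 were rarer, and its nearest genes Traf3ip3, Slco1a1 and Arl5c differed by 0.16 to 0.42. Cyp4a14 was nearest to Cracr2b, Fam25c and Selenbp2 (0.25 to 0.44), which were likewise highest at 48 h.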

How the data were processed

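The authors deposited, for each library, whole-number counts per barcode and called peak with the peak and barcode lists. By the submitters' processing notes and the file headers these were made with Cell Ranger ATAC 1.1.0 on mm10, with peaks called per library. Since 87.3% to 88.6% of the nonzero values were even, a value counts cut sites, and intervals were computed on fragments (counts divided by 2).

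Here counts of barcodes with at least 1000 counts were summed over peaks that overlapped a gene body plus 2 kb upstream (GENCODE vM21) by at least 1 bp, and divided by all counts in peaks of those barcodes (CPM). Promoter peaks lay within 1 kb of the gene start. Peak pairs overlapped by at least 80% of both lengths and had a mean of at least 1 CPM. Doublets were not called. Poisson intervals are exact, at 95%, and cover counting error only. Nuclei were sorted by marker genes into hepatocyte-marker and other-marker nuclei. Python 3.11.15, numpy 2.4.6, pandas 2.3.3, scipy 1.17.1 and matplotlib 3.10.9 were used, and the ratio was tested on simulated data. Apart from markers, genes that share a peak with a member, and Rxra, the genes named besides the 8 were chosen by rule. They are, per list, at most 3 with the largest fold in each direction past 2-fold, and 3 nearest genes per member. Some of these are not reported here.

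The members and lists were chosen with earlier results of these data known. The zonal markers, the peak pairs and the search of gene windows for the PPARA element were chosen after seeing the data. Alternatives changed the nuclei, window, peaks, scaling, length correction and fold.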

Additional observations from a re-analysis of the deposited data

Results flagged for a closer look

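Cyp4a14 was singled out because its ratio to undamaged liver had opposite signs at different times. The log2 ratio of CPM was 1.18 at 48 h against -1.22 at 72 h, and 1.18 at 48 h against -2.36 at 96 h, with 1 library at each time. The difference between the times was not tested. Called peaks covered 12618 bp of the gene window at 48 h against 5292 bp in undamaged liver, and the log2 ratio at 48 h was -0.073 per kb of covered peak, 0.27 over merged regions with a peak in each library and 0.45 for the promoter alone. The level at 48 h was higher than at 0 h in both the pericentral-ranked and the periportal-ranked nuclei.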

How the results depend on the processing

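No paired analysis between times was possible because each time point had 1 library, and no result comes from a test between times. Only the comparisons between groups of nuclei were paired, within each library. All 24 ratios kept their sign and stayed within counting error with a minimum of 3000 counts, every deposited barcode, only hepatocyte-marker nuclei or a pseudocount of 1 CPM. The 1 gene higher at 48 h, Cyp4a14, became 0 with regions shared by all libraries, CPM per kb or the promoter alone. The counts of 0 with regions of near-equal length or peak pairs say nothing of it, because it had no value there. The 1 gene lower at 48 h, Cyp4a10, was under 2-fold in all 5 of these settings, so that the count was 0 with the first 2 and with regions of near-equal length or peak pairs, while with the promoter alone the 1 gene was Ppara. At 1.5-fold 3 were lower at 48 h, as were 7.74% of all genes. The 4 genes lower at 72 h became 2 with shared regions (5.94% of all genes) or with scaling to promoter peaks (4.04%), and 0 with CPM per kb and with regions of near-equal length or peak pairs, where Ppara and Cyp4a14 had no value. With the promoter alone and no minimum on it, 3 were lower (8.47%), namely Ppara, Cyp4a14 and Pdk4, the last not among the 4. The 4 lower at 96 h became 5 with 5 kb upstream (8.20% of all genes) or at 1.5-fold (17.2%), 3 without upstream sequence (8.86%, with 6 genes that had a value) and 0 per kb, where 5 were higher, as were 71.5% of all genes. With the promoter alone 2 were lower at 96 h (8.96%), Ppara and Pdk4, of which Pdk4 was not among the 4, and Cyp4a10 and Cyp4a14 had no value. At 96 h regions of near-equal length and peak pairs gave no value for any member. Per kb 10 of the 24 ratios kept their sign. Of those at least 2-fold in counts, the log2 ratio of Cyp4a14 at 48 h was -0.073, those of Cyp4a10 and Cyp4a14 at 72 h were 0.16 and 0.43, and at 96 h those of Ppara, Cpt1a, Fgf21, Cyp4a10 and Cyp4a14 were 0.74, 0.88, 0.79, 1.01 and 1.36, opposite to the ratios of counts. Acadm and Ehhadh, under 2-fold lower in counts at 96 h, were at 1.65 and 1.21 per kb. The cause was not tested, and no setting separates a closed region from one that a shallower library could not call.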
